A study of Mus musculus with 2 samples.

Results

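Fast skeletal muscle isoforms are the versions of contractile proteins that rapid-twitch fibres of limb and trunk muscle use. Most stand in place of cardiac, slow or smooth muscle versions, but the actin Acta1 also serves slow fibres and is expressed in heart. The set held 9 genes listed by symbol: the troponin subunits Tnnt3, Tnni2 and Tnnc2, the actin Acta1, the actinin Actn3, the regulatory light chain Mylpf, the myosin heavy chains Myh2 and Myh4, and the calcium pump Atp2a1. All 9 had a probe, among 20886 gene symbols on the array, with 10 probes of 39429 in all. The set was listed by gene name, with earlier results of these data known, to set skeletal against cardiac isoforms in a lung sample.

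RNA came from whole lung 14 days after bleomycin at 1.25 mg/kg was injected into the trachea, which injures the alveoli and leads to scarring. One group was a C57BL6/N mouse lung and the other a C57BL6/N lung with a transgene that overexpresses HSP27, the small heat shock protein whose mouse gene is Hspb1, with 1 Agilent one-colour array each. Both samples were labelled male and 6 weeks old, both had bleomycin, and no array of untreated lung was analysed here. The labels name neither the promoter or species of the transgene nor whether a sample pools animals.

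Muscle contracts when calcium released from the sarcoplasmic reticulum binds troponin C, which moves troponin I and troponin T on the actin filament so that myosin heads can pull. Each part of this machine comes as a family of isoforms, and a fibre type or the heart uses its own choice from each family. Fast fibres express troponins T3, I2 and C2, alpha skeletal actin, fast myosins and the SERCA1 pump. Heart muscle expresses troponins T2, I3 and C1, alpha cardiac actin, cardiac myosins and SERCA2. Whole lung normally holds smooth muscle and, in the mouse, cardiac-type muscle around the pulmonary veins, but no skeletal fibres.

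The arrays shared a slide and a scan. The scanner software flagged 69.3% of 39429 probes as well above background in the C57BL6/N sample and 69.4% in the transgenic one, and no spot was saturated. Hspb1 differed by 0.24 on the log2 scale, transgenic minus C57BL6/N. All 9 genes of lung cells that had a probe, among them the surfactant gene Sftpc and the alveolar type 1 marker Ager, were well above background on both arrays, with a median difference of -0.40. The lowest were the endothelial claudin Cldn5 (-1.02) and the mesenchymal factor Foxf1 (-0.95). The sex-linked transcripts went against the labels, since both samples were labelled male. Probes for Xist, the RNA of the inactive X chromosome, read 521 and 330 in the C57BL6/N sample. In the transgenic sample neither was well above background, which puts Xist at least 36.8-fold lower there. The Y-linked Ddx3y (508 and 2437) and Eif2s3y (800 and 3338) were well above background on both arrays, so that Xist and Y-linked RNA were both present in the C57BL6/N sample, and they were 2.11 and 1.91 higher on the transgenic array. Whether that sample holds RNA of more than 1 animal was not tested. Every difference below is between these same arrays, so that the transgene, the sex-linked difference and any difference between animals cannot be told apart, and no result can be given without either array.

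Signals below are Agilent processed signals, each followed by the error that the scanner software's error model gave for that spot. Differences are log2 of the transgenic over the C57BL6/N signal after each array was divided by its 75th percentile (1287 and 1426). Since each group had 1 array, the spread between animals was not measured, and no test or p-value is given. Among probes printed in 10 spots and split in 3 by signal, the SD of such a difference between spots was 0.13 for the dimmest, with signals up to 507, 0.06 for the middle and 0.05 for the brightest. This spread and the error model are technical and say nothing of animals. Signals of different probes are not compared, since probes differ in brightness at equal RNA.

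Of the 9 fast isoforms, 6 were well above background on both arrays and 3 on neither. Among those 6, Tnnt3 and Acta1 passed 2-fold upward in the transgenic lung, and Actn3 joined them at 1.5-fold, while Tnni2, Tnnc2 and Atp2a1 were within 1.5-fold. None was 1.5-fold lower. As background, 3.81% of the 15495 genes measured on both arrays passed 2-fold upward and 10.2% passed 1.5-fold upward, against 1.87% and 8.31% downward. The median of the 6 was 0.42, against -0.04 over all genes measured. The upward share of all genes past 2-fold was 67.2% here and 77.3% with cyclic loess, and at 1.5-fold it was 55.1% here and 66.5% with cyclic loess. In RNA of whole lung, a change in the number of cells of a type and a change in RNA per cell cannot be told apart.

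**Figure D1:**
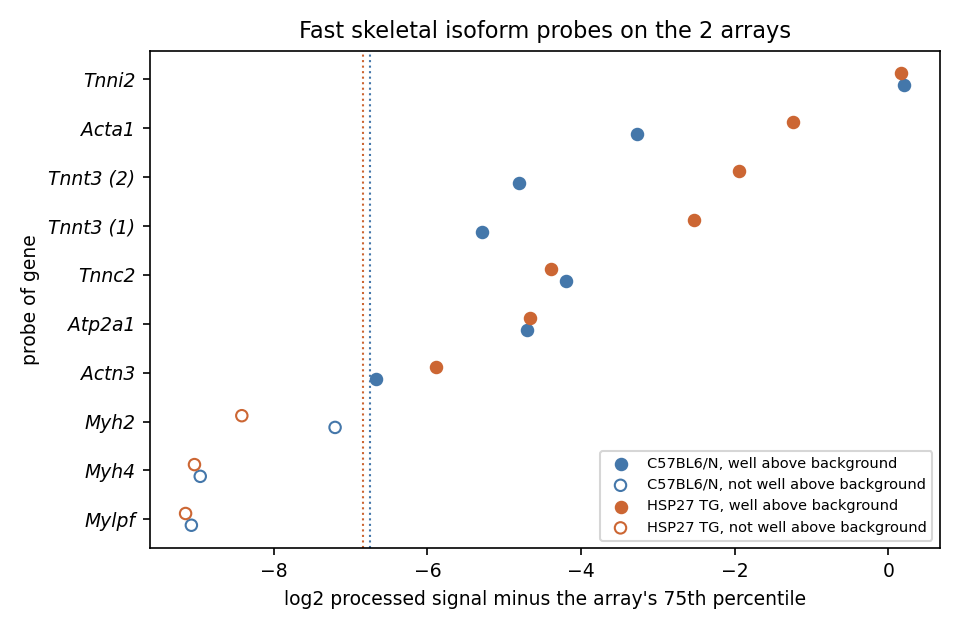
Scaled log2 signal (x axis, log2 processed signal minus the 75th percentile of the array) of the 10 probes of the 9 fast isoforms on the C57BL6/N array (blue) and the HSP27 transgenic array (orange). Filled points were well above background, open points were not, and dotted lines mark the lowest signal well above background on each array. Acta1 and both Tnnt3 probes are shifted to the right on the transgenic array, Tnni2, Tnnc2 and Atp2a1 lie close together, and Myh2, Myh4 and Mylpf lie left of the lines.

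The troponin complex did not move as a unit. Tnnt3, the fast troponin T that anchors the complex to tropomyosin, had 2 probes designed on different transcripts. The first read 32.9 with an error of 4.21 on the C57BL6/N array and 248 with an error of 25 on the transgenic array. The second read 46.0 with an error of 5.21 and 371 with an error of 37.2. Both probes were therefore dim in the C57BL6/N lung and clearly brighter in the transgenic lung, by 2.77 and 2.86 on the log2 scale. Their mean was 2.82, or 7.04-fold, above the central 95% of all genes (-0.92 to 1.24). With a normexp background correction the difference was 1.70, still past 2-fold.

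Tnni2, the fast inhibitory subunit that holds actin away from myosin, read 1481 with an error of 148 on the C57BL6/N array, far above background, and 1604 with an error of 160 on the transgenic array. The errors overlapped, and the scaled difference was -0.03. Tnnc2, the fast calcium sensor, read 70.0 with an error of 7.45 and 68.1 with an error of 7.32. Its difference of -0.19 was smaller than the 0.22 that the spot errors give for a log2 difference. Thus 1 of the 3 fast troponin subunits differed past 2-fold, and the inhibitory subunit and the calcium sensor of the same complex did not reach 1.5-fold.

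Tnni2 and Tnnt3 lie near each other in the genome, with Lsp1, a leukocyte actin-binding protein gene, between them in the RefSeq gene order. Lsp1 differed by 0.09, Mrpl23 on the far side of Tnnt3 by 0.06, and the next gene, the growth factor Igf2, by 2.03. On the far side of Tnni2, Syt8 differed by 1.02 and Ctsd by 0.99. These neighbours, up to 2 on each side of Tnni2 and Tnnt3, were chosen for their place, after the values had been seen. Among them Tnnt3 was the highest, and Tnni2, Lsp1 and Mrpl23 were near 0.

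Acta1, the alpha skeletal actin, builds the thin filament of fast and slow fibres alike. It read 133 with an error of 13.5 on the C57BL6/N array and 602 with an error of 60.3 on the transgenic array. The values differed by more than their errors, and the difference was 2.03, or 4.09-fold. With normexp it was 1.57. Actc1, the cardiac actin, differed by 1.32 and Acta2, the smooth muscle actin, by 1.51, so that these 3 actins all passed 2-fold upward. The proteins are close paralogues, and how far the Acta1 probe also binds RNA of the other actins was not tested.

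Actn3, the actinin that crosslinks actin at the Z-disc of fast fibres, was near the lower limit of measurement. It read 12.6 with an error of 2.75 in the C57BL6/N sample, whose lowest signal flagged as well above background was 11.9, and 24.1 with an error of 3.52 on the transgenic array. The difference was 0.78 (1.72-fold), with 0.38 from the spot errors. With normexp it was 0.20, which ended the 1.5-fold call. Its counterpart Actn2, the actinin of heart and of all skeletal fibre types, was well above background in the transgenic sample alone, at least 9.63-fold higher.

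The 3 myosin genes of the set were not detected on either array. Mylpf, the regulatory light chain that wraps the neck of fast myosin, read 2.39 with an error of 2.38 on the C57BL6/N array and 2.51 with an error of 2.51 on the transgenic array. Myh4, the heavy chain of the fastest (IIb) fibres, read 2.59 with an error of 2.59 and 2.72 with an error of 2.71. Myh2, the heavy chain of fast oxidative (IIa) fibres, read 8.74 with an error of 3.13 and 4.17 with an error of 3.29. None of the 3 was well above background on either array, where the lowest such signals were 11.9 and 12.5, so no fold is given. Of all 20886 symbols, 21.8% were likewise not well above background on either array. Myh1, the third adult fast heavy chain, which lies between Myh2 and Myh4 in the gene order, read 13.0 and 10.8 and did not pass the flag on either array. Transcripts of Mylpf, Myh1, Myh2 and Myh4 were thus not detectable at this signal, in the array with higher Tnnt3 and Acta1 as in the other. Other fast myosin genes were detected, namely Myl1 on the transgenic array and Myh13, near the lower limit of measurement, on both arrays.

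The promoter sequences below set some members that were detected or not detected beside a cardiac counterpart. Not every member with a promoter sequence is shown. Acta1 was detected and differed, Myh2 and Myh4 were not detected, and Actc1 is the cardiac counterpart of Acta1. Each line gives the 250 bases before the gene start, 5′ to 3′, from RefSeq on GRCm38.p6, with capitals for a CArG box (the site of serum response factor) or a MEF2 motif, both factors of muscle genes.
Acta1, chr8:123894776-123895025, minus strand: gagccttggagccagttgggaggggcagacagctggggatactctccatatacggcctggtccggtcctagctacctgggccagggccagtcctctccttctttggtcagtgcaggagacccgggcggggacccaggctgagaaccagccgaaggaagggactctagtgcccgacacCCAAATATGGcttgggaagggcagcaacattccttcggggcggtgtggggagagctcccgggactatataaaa
Actc1, chr2:114052876-114053125, minus strand: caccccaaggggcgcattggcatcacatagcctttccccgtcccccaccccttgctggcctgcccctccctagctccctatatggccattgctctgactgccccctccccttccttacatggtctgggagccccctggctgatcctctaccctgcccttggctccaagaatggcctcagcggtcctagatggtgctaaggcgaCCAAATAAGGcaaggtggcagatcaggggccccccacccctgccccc
Myh4, chr11:67237562-67237811, plus strand: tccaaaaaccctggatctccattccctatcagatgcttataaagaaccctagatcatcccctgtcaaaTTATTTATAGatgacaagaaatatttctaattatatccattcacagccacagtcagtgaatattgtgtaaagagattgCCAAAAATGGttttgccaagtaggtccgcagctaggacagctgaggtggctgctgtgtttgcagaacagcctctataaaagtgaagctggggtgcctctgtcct
Myh2, chr11:67170777-67171026, plus strand: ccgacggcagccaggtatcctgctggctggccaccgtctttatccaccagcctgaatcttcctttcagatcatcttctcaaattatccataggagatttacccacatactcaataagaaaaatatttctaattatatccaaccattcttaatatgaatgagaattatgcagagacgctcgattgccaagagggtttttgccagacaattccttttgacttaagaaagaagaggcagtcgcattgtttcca

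The table of promoters held 6 of the 9 members (Acta1, Tnnc2, Atp2a1, Mylpf, Myh2 and Myh4). A CArG box on either strand was present in 2 of the 6, Acta1 and Myh4, against 1.47% of 32851 promoter windows of the same length. Of the cardiac counterparts in the table, Actc1, Myl3 and Myl7 also held one. It began 73 bases before the gene start in Acta1, 47 in Actc1 and 104 in Myh4. A MEF2 motif was present in 1 of the 6, Myh4, and in the counterpart Mybpc3, against 2.92% of windows. The motif CANNTG, the E-box that myogenic factors bind, was present in 5 of the 6 members with a promoter and in 66.2% of all windows, so its presence was common. Of the heavy chains that were not measured, Myh4 held a CArG box and Myh2 did not. A match is a description of letters in this window, not of binding.

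Atp2a1, which encodes the SERCA1 pump that returns calcium to the sarcoplasmic reticulum of fast fibres, read 49.3 with an error of 5.58 on the C57BL6/N array and 56.4 with an error of 6.28 on the transgenic array. The scaled difference was 0.05, inside the 0.23 of the spot errors. Its counterpart Atp2a2, the SERCA2 pump of heart, slow fibres and many other cells, was at 0.34, with probes at 0.75 and -0.06. Sln, a small peptide that inhibits these pumps and is abundant in atrial muscle, read 6.20 and 3749 and was at least 283-fold higher in the transgenic lung. The pump itself and its inhibitor thus differed by very unequal amounts.

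Within each family, the difference of the fast isoform was set beside those of its cardiac and slow counterparts. In troponin T, Tnnt3 was at 2.82, the cardiac Tnnt2 at 3.33 and the slow Tnnt1 at 0.33. In troponin I, Tnni2 was at -0.03 and the cardiac Tnni3 at 3.41, a 10.7-fold difference. The slow Tnni1 was well above background in the transgenic sample alone, at least 2.06-fold higher. In troponin C, Tnnc2 was at -0.19 and Tnnc1, which serves both heart and slow fibres, at 1.53. Cardiac subunits of all 3 kinds were at least 2-fold higher, whereas among fast subunits Tnnt3 alone was. With normexp, Tnnc1 was at 0.82, below 2-fold.

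In the myosin families the fast genes gave no value and the cardiac ones spanned a wide range. Myh6, the alpha heavy chain of adult mouse heart, read 131 in the C57BL6/N and 19725 in the transgenic sample at its usable probe, a difference of 7.09. Its other probe passed the background flag in the transgenic sample alone (3.22 against 106). Myl7, the regulatory light chain of the atria, was at 4.27. Myl2, the regulatory light chain of the ventricles and of slow fibres, read 20.7 and 18.0 and was at -0.35. Myh7, the heavy chain of slow fibres and of the fetal ventricle, read 2143 and 1212 and was at -0.97. The alpha heavy chain and the atrial light chain were thus high where Myl2 and Myh7 were not. Myl3, a light chain of ventricle and slow muscle, was at 5.38, and Myl4, another of the cardiac light chains listed, at 2.66. The source of these transcripts was not tested.

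**Figure D2:**
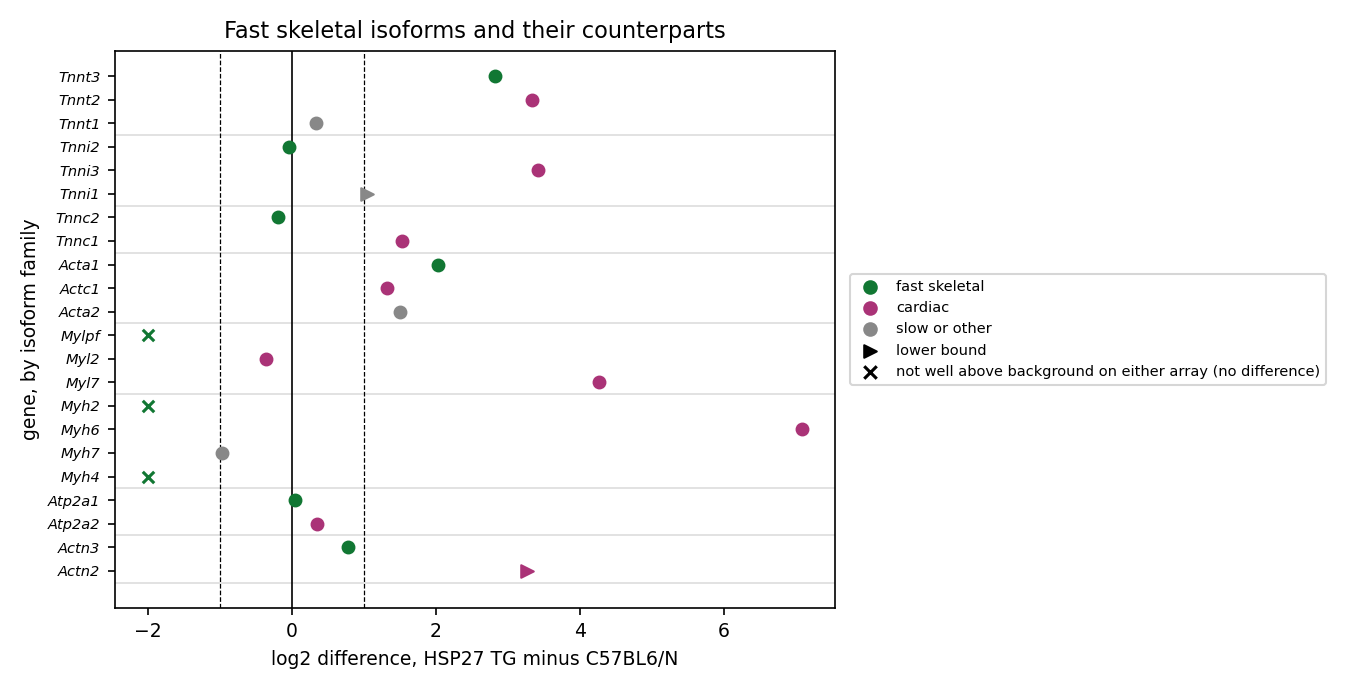
Log2 difference (x axis, HSP27 transgenic minus C57BL6/N) of the fast skeletal isoforms (green), their cardiac counterparts (purple) and slow or other counterparts (grey), by family from top to bottom. Tnnc1, Myl2, Atp2a2 and Actn2 serve skeletal fibres too. Triangles are lower bounds, crosses at the left edge mark genes not well above background on either array, and dashed lines mark 2-fold. Purple points reach 7.09 (Myh6), the green ones 2.82 (Tnnt3).

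Among 12 cardiac counterparts listed, 11 were measured on both arrays. Of these, 9 passed 2-fold upward and 0 downward, and their median was 3.29. The highest were Myh6 (7.09) and Myl3 (5.38), a light chain of ventricle and slow muscle. The sum of scaled signals over all 12 listed, in units of the 75th percentile, was 5.57 for the C57BL6/N and 30.2 for the transgenic sample. It includes probes at background, and bright probes weigh most in it. Of 10 cardiac hormones, factors and channels, 6 were measured, and 2 passed 2-fold upward and 0 downward. Nppa, the atrial natriuretic peptide, was at 5.55 and Ryr2, the calcium release channel of heart, at 1.37. The largest bound of that list was Tbx20, a cardiac transcription factor, at least 1.48-fold higher. The cardiac lists and the fast isoforms that differed were high on the same array, and the part of cardiac muscle RNA in the values of Tnnt3 and Acta1 was not tested.

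The other genes of fast muscle showed few large differences. Of 8 further fast genes, 5 were measured on both arrays, and 1, the superfast myosin Myh13 (0.61), was at least 1.5-fold higher, with a median of 0.02. Myh13 was near the lower limit of measurement. It read 15.6 with an error of 3.33 on the C57BL6/N array and 26.3 with an error of 4.11 on the transgenic array. The spot errors give 0.38 for its log2 difference. Pvalb, the calcium buffer parvalbumin of fast fibres, was at 0.02 and Mybpc2, the fast myosin binding protein C, at -0.02. Myl1, the essential light chain of fast myosin, was the exception. Its probes read 8.07 and 2.38 on the C57BL6/N array and 516 and 14.5 on the transgenic array, for a mean bound of at least 6.54-fold. Casq1, the calcium store protein of fast fibres, passed the background flag in the transgenic sample alone, at least 1.09-fold higher.

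Slow skeletal genes were mostly level. Of 7, 6 were measured on both arrays, none at least 1.5-fold higher and 1, Myh7, at least 1.5-fold lower, with a median of 0.29. Genes listed for skeletal excitation-contraction coupling were likewise mixed. Some of them, Srl and Trdn included, are expressed in heart too. Of 11, 7 were measured, with Srl (sarcalumenin, a calcium-binding protein of the reticulum) at 2.20, Jsrp1 at 0.88 and Stac3, needed for calcium release in skeletal fibres, at -0.80. Ryr1, the skeletal calcium release channel, was at 0.54, and Cacng1, Jph1 and Clcn1 were not well above background on either array. The largest bound of that list was Trdn, triadin, at least 2.08-fold higher.

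Among 8 enzymes of fast fibre metabolism, all measured, Pgam2, the muscle phosphoglycerate mutase, was at 1.85 and Ampd1, muscle AMP deaminase, at 0.79. Pygm, muscle glycogen phosphorylase, was at 0.13, and the median was 0.38. Genes common to heart and skeletal muscle stood higher. Of 24, 15 were measured on both arrays, of which 7 passed 2-fold upward and 0 downward, with a median of 0.82. A further 7 passed the background flag in the transgenic sample alone. Over all 20886 symbols, 512 passed it in the transgenic sample alone and 333 in the C57BL6/N sample alone. The giant spring protein titin (Ttn) was at 3.80 at its usable probe and Tcap, its cap at the Z-disc, at 3.72. Neb, nebulin, a ruler of thin filaments that is mainly skeletal, was at 0.82. Both Neb probes, at 0.53 and 1.11, were dim in the C57BL6/N sample (24.1 and 13.2). Ckm, the muscle creatine kinase that is among the most abundant transcripts of fast fibres, passed the flag in the transgenic sample alone, with a signal of 28.0, at least 2.11-fold higher.

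Factors that build skeletal muscle were mostly undetected. Myod1, Myf5, Myog and Myf6, the 4 myogenic regulatory factors, and Pax7, the marker of satellite cells, were not well above background on either array. Of 14 myogenic and developmental genes, 8 were in this state and 5 were measured on both arrays. Of these 5, 2 passed 2-fold upward and 0 downward, with a median of 0.26. Mymk was at 0.26, with signals of 68.0 and 90.3. Musk (-0.01) and the usable probe of Pax3 (-0.42) were dim, with C57BL6/N signals of 18.9 and 19.5. Myh8, the perinatal heavy chain next to Myh4, was at 2.68 at its usable probe (211 and 1497), while its other probe read 3.51 and 4.29 and was not well above background on either array. Myh3, the embryonic heavy chain, passed the flag in the C57BL6/N sample alone, at least 2.35-fold lower in the transgenic sample.

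**Figure D3:**
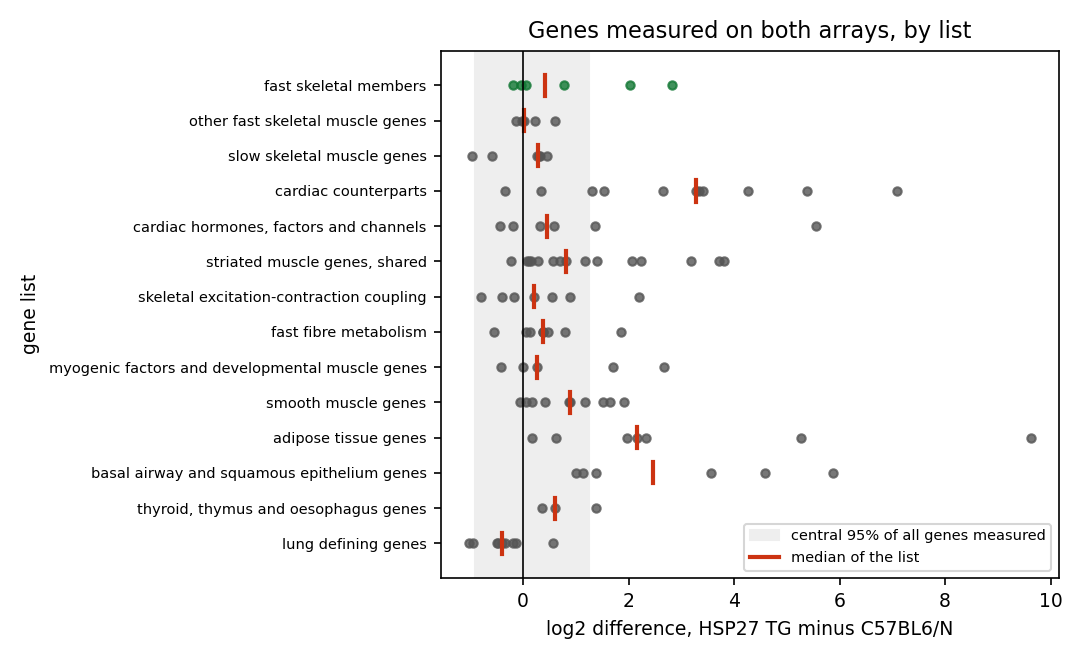
Log2 difference (x axis, HSP27 transgenic minus C57BL6/N) of each gene measured on both arrays, by list (y axis), with the fast skeletal isoforms in green and a red bar at each list's median. The grey band holds the central 95% of all 15495 genes measured (-0.92 to 1.24). Tnnt3 and Acta1 lie right of the band, and the cardiac counterparts have a median of 3.29 against 0.42 for the fast isoforms.

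Genes of fat, of basal airway and squamous epithelium, and of smooth muscle were higher by median on the transgenic array. Smooth muscle and airway epithelium are parts of whole lung itself. Adipose genes had a median of 2.17, and 5 of 7 measured passed 2-fold upward, with summed signals of 3.17 and 33.4. Sums here cover every gene of a list that had a probe, also at background, and bright probes weigh most. The highest were Cfd (9.62) and Retn (5.27), and Adipoq was at least 76.1-fold higher. Ucp1, the marker of brown fat, passed the background flag in the transgenic sample alone, at least 11.7-fold higher, and Lep was not well above background on either. Basal and squamous epithelial genes had a median of 2.47, and 5 of 6 passed 2-fold upward, with sums of 1.68 and 3.75. Krt5 was at 5.87 and Krt15 at 4.59, while Krt4, Dsg3 and Dsc3 were not well above background on either array. Smooth muscle genes had a median of 0.88, and 4 of 10 passed 2-fold upward, with sums of 38.4 and 83.2, led by Cnn1 (1.91) and Actg2 (1.64). Of 8 genes of thyroid, thymus and oesophagus, 3 were measured, with Krt13 at 1.38 and Tg, thyroglobulin, at 0.60. Krt13 and Krt4 were also on the basal and squamous list. Des (1.18) was on both the smooth muscle list and the list common to heart and skeletal muscle. Such genes count in both lists, so these lists are not independent. The part of these tissues in the values of the fast isoforms was not tested.

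Across all genes with a brighter value above the 75th percentile, those whose difference was nearest to that of Tnnt3 were Serpina3n (2.73), Cxcl13 (2.72) and Saa1 (2.91). Tnnt3 itself lay below that percentile on both arrays, at -5.05 and -2.23 on the scaled log2 axis. Genes as dim as Tnnt3 were therefore not searched. Likeness was the gap between log2 differences over 2 arrays, which was 0.08, 0.09 and 0.10. With 2 arrays, genes can share a difference without sharing anything else.

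**Figure D4:**
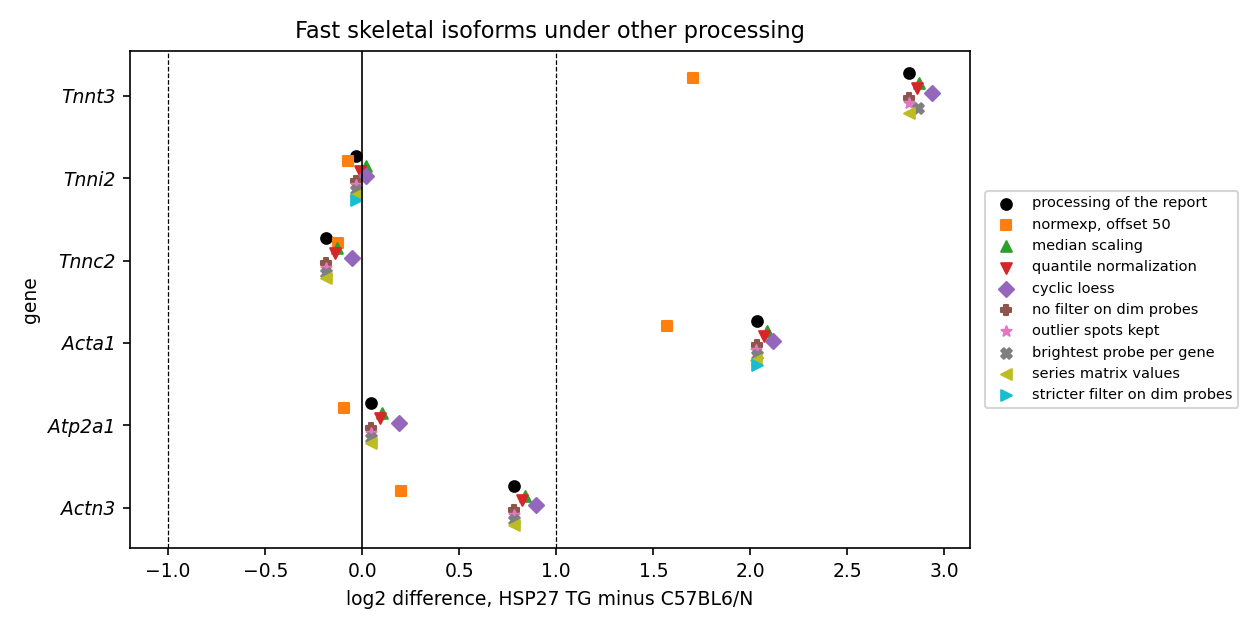
Log2 difference (x axis, HSP27 transgenic minus C57BL6/N) of the 6 fast isoforms measured on both arrays, under the processing of the report (black) and 9 alternatives (coloured symbols). Dashed lines mark 2-fold. Tnnt3 and Acta1 stay right of the line at 1 wherever they are measured, with their lowest values (1.70 and 1.57) under normexp, and Actn3 falls to 0.20 there.

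The plot of differences under other processing shows the order of the members. Tnnt3 lay highest and Acta1 next in each alternative that measured both genes. The stricter filter on dim probes left Acta1 and Tnni2 alone among the 9 members.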

How the data were processed

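Whole lung RNA of 2 samples was measured on 1 Agilent one-colour array each. Per the file headers, the deposited files hold the intensity of each spot as processed by Feature Extraction 11.5.1.1, with background subtracted and no scaling between arrays. Per the labels, RNA was extracted with Trizol and labelled with Cy3. The deposited series table is also an intensity, which matched the processed signal within 0.1% at 39030 single-spot probes of each array.

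Control and outlier spots were left out, log2 signals of a probe's spots averaged, and each array's 75th percentile subtracted. A probe was usable if, on both arrays, 50% or more of its spots carried the well-above-background flag, and usable probes of a gene were averaged. A bound divides the bright signal by the dim probe's signal or by the dim array's lowest flagged signal, whichever is higher, averaged over a gene's probes. Accessions were matched without version to RefSeq names of GRCm38.p6 (27508 of 39429 probes, 69.8%), and the headers name mm9, so no gene coordinates from that table are given. Genes named were all members, their counterparts, up to 2 highest and 2 lowest genes past 1.5-fold and the largest bound of each list, and the 3 genes nearest to Tnnt3. Further genes were added for their role or place. One gene that this rule names is not reported here. Members and lists were chosen with earlier results of these data known. The steps were tested on simulated data. Normexp, planned on mean signals where given, used median pixel signals without 7 spots whose background reached their signal. Python 3.11.15 with numpy 2.4.6 and pandas 2.3.3, and R 4.3.3 with limma 3.58.1, were used.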

Additional observations from a re-analysis of the deposited data

How the results depend on the processing

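With 1 array per group, no replicate could be left out. No paired analysis was possible because each group has 1 array. Differences of the 6 measured members under 9 alternatives moved by less than the spread of repeat spots in 44 of 50 values. Many of these values could not move, so the count is no measure of robustness. A member with 1 probe keeps its value under another filter that it passes and under the choice of the brightest probe. The series table repeats the processed signals, and median scaling shifts every gene by the same 0.055. With normexp (offset 50), Tnnt3 was at 1.70, Acta1 at 1.57, Actn3 at 0.20 and Atp2a1 at -0.092. With cyclic loess, Tnnc2 was at -0.052 and Atp2a1 at 0.19. The median of the members was 0.062 with normexp, 0.54 with cyclic loess, -0.033 with no filter on dim probes and 0.999 with the stricter filter, which measured 2 members. That filter left 1 member past 2-fold upward and 1 past 1.5-fold upward. Without the filter, which adds 3 members at background, 1 member (Myh2) was at least 2-fold and so 1 at least 1.5-fold lower. Over all genes, those at least 2-fold higher numbered 306 with normexp, 1195 without the filter and 301 with the stricter one, against 591. Those at least 2-fold lower numbered 112, 736 and 176, against 289. At 1.5-fold, 980, 2526 and 1034 were higher, against 1582, and 682 lower with normexp and 2080 without the filter, against 1287. Of medians of the other lists, 40 moved by more than the repeat-spot spread of middle signals and 76 did not, and of differences of the counterparts 14 moved and 81 did not. Counterparts with 1 probe likewise could not move under the filters or the choice of probe. The median of the cardiac counterparts ranged from 2.66 to 3.38 over the alternatives. The median of the other fast genes was -0.055 with normexp and 0.42 with no filter, and that of the slow genes -0.16 with the stricter filter, which measured none of the thyroid, thymus and oesophagus genes. The median of the shared striated genes, 0.82 in the report, was 1.88 with no filter and 0.56 with the brightest probe per gene, and that of the basal list 0.45 with the stricter one. No scaling moved the median of all genes by more than 0.07. Apart from what their construction shows, the causes were not tested. Signal over background limits Actn3, Myh2, Myh4 and Mylpf, and the 8 members with 1 probe have no second probe to set beside it.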
